A study of Mus musculus with 6 samples.

Results

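The genes examined here were the liver components of the growth hormone, STAT5 and IGF1 axis, chosen by name as Ghr, Igf1, Igfals, Stat5a, Stat5b, Socs2, Cish, Igfbp2, Igfbp4 and Bcl6. They are 10 of the 28880 genes in the deposited table, and all 10 passed the filter on low counts that left 16717 genes for testing. The RNA-seq libraries came from whole liver of male C57BL/6J mice aged 6 to 8 weeks, 3 of them acute ethanol-exposed and 3 control animals. The ethanol-exposed mice were fasted for 12 h, received 50% (v/v) ethanol once by oral gavage at 6 g/kg, and tissue was collected 24 h later, while the control mice received no ethanol. Whether control mice were fasted or sham-gavaged is not given in the sources used here, so ethanol, fasting and gavage cannot be told apart in these values.

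Growth hormone from the pituitary binds its receptor on hepatocytes, and the kinase JAK2 then phosphorylates STAT5, which enters the nucleus and switches on its target genes. Among these targets are Igf1, which encodes the main circulating growth factor of the axis, and the feedback inhibitors of the SOCS family, which damp the same receptor. In the blood, IGF1 travels bound to IGF binding proteins and, in its largest complex, to the acid-labile subunit, all of which the liver can make. In rodents, the pulsatile growth hormone of males and the more continuous hormone of females give many liver genes a sex-biased level.

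Between 71123046 and 74001784 reads were counted on genes in each ethanol-exposed library and between 60514417 and 74210869 in each control library. Levels are given as CPM, the counts of a gene relative to the library total after scaling by the TMM method, unless FPKM, which also divides by transcript length, is named. The TMM factors were 0.768 to 0.836 in the ethanol-exposed and 1.26 to 1.27 in the control libraries, and with library size alone the median over all genes moved from −0.043 to −0.71 on the log2 fold change scale. On the log2 CPM of the genes tested, the first principal component (65.2% of the variance) separated the groups. The second (16.7%) set ethanol-exposed replicate 3 apart at −88.7, against 33.4 and 51.7 for the other ethanol-exposed libraries. Values without this library are therefore given beside many, but not all, of the results that it moved. Hepatocyte markers were abundant in every library, with a summed level of 131489 to 134163 CPM in ethanol-exposed and 72031 to 84505 CPM in control mice. Of the 9 of 10 hepatocyte markers tested, 1 was upregulated (10.4% of all genes tested were), 6 were higher on the adjusted p alone (21.5% of all genes tested) and none was downregulated in edgeR (0 also in DESeq2 and at an unadjusted p under 0.05), and their median log2 fold change was 0.69. These marker levels depended on the scale. In mean FPKM, Alb was at 29681 in ethanol-exposed against 26747 in control mice, Apoa1 at 5358 against 3616 and Hnf4a at 100 against 99.0. Apoa2 and Ahsg were also higher on that scale, while Ttr (3975 against 4480), Fabp1, Cps1 and Ass1 were lower. In whole liver, fewer cells of a type and less RNA per cell cannot be told apart.

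Genes with a Benjamini-Hochberg adjusted p under 0.05 in edgeR's quasi-likelihood test and a log2 fold change beyond 1 were called differentially expressed genes (DEGs). The axis did not move as a block. Socs2, Cish, Igfbp2 and Igfbp4 were upregulated in acute ethanol-exposed mice, Bcl6 was downregulated, and the receptor, both STAT5 genes, Igf1 and Igfals were not DEGs. These 5 DEGs of 10 members stand beside 24.2% of all genes tested. By direction, the 4 upregulated members stand beside 10.4% and the 1 downregulated member beside 13.8%. On the adjusted p alone, Igf1 joined the higher members and Stat5a the lower ones, giving 5 and 2 of 10, or 7 in all, where 43% of all genes tested passed and 21.5% did so in each direction. The same 5 and 2 members had no overlap in CPM between the groups, against 28% and 31% of all genes tested (59% in either direction). The median log2 fold change of the 10 members was 0.43, against −0.043 over all genes tested.

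**Figure D1:**
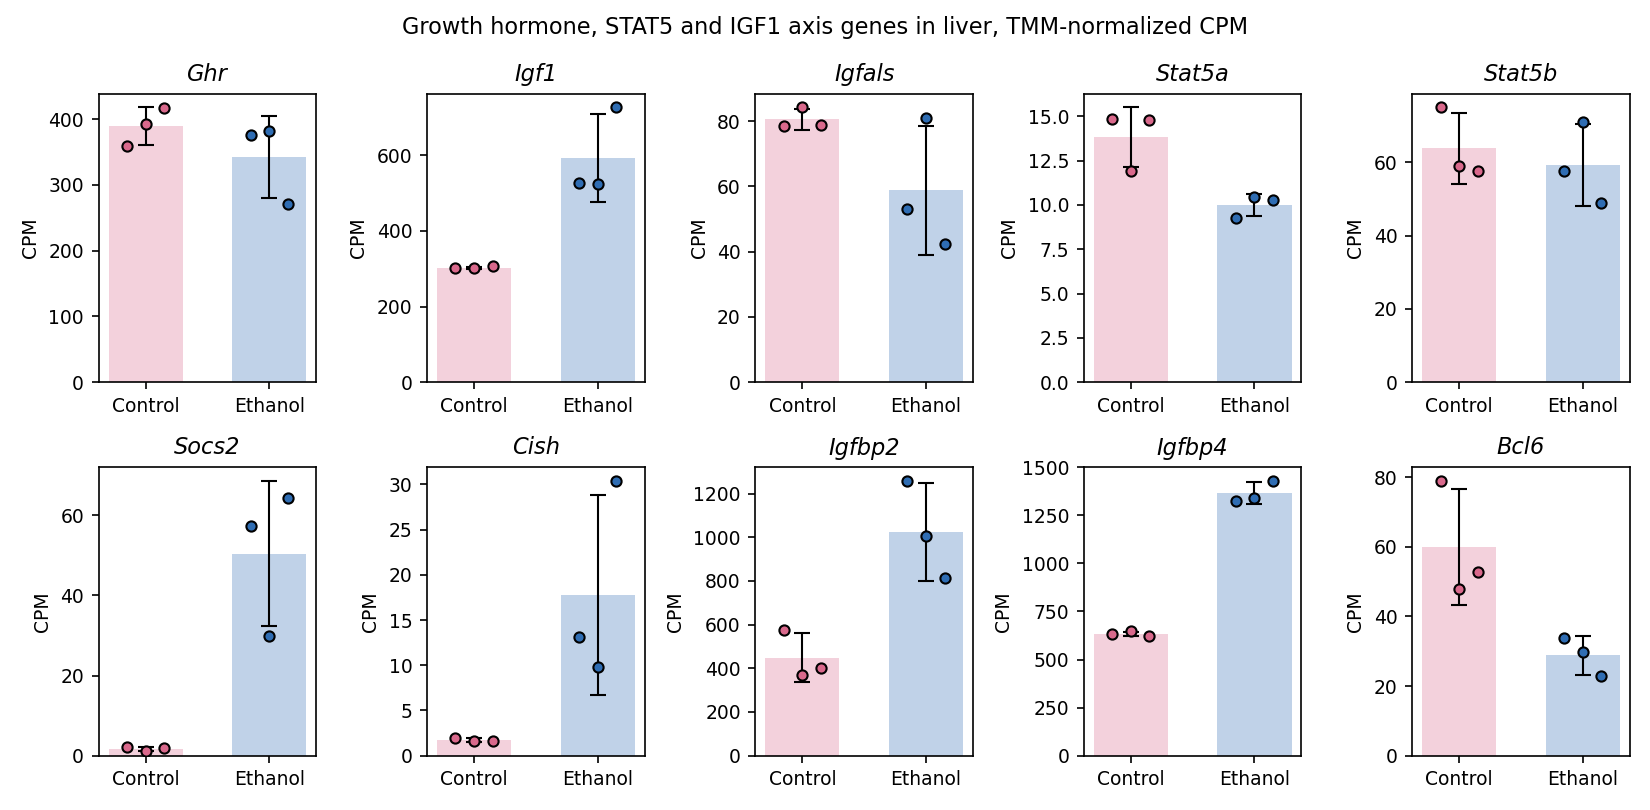
TMM-normalized CPM of the 10 axis genes in 3 control and 3 acute ethanol-exposed libraries, with a linear axis from 0 for each gene. Points are single libraries, bars the group means and error bars 1 SD; Socs2, Cish, Igfbp2, Igfbp4 and Igf1 lie higher in every ethanol-exposed library, Bcl6 and Stat5a lie lower, and Ghr, Igfals and Stat5b overlap.

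STAT5 binds DNA at the palindrome TTCNNNGAA, which reads the same on both strands, so the promoters of the axis genes were searched for these letters. RefSeq promoters on build GRCm38.p6, each running from 250 bases before to 50 bases after a gene's start, were found for 9 of the 10 members by symbol and gene identifier, all but Socs2. They gave 16 promoters, of which 5, belonging to Igfals, Cish and Bcl6, held at least 1 match. Among all 32851 RefSeq promoters of that length, 2726 (8.3%) held at least 1 match and 150 (0.457%) held at least 2. The 3 stretches below come from the member promoter that held a tandem pair, from 1 of the 2 Igfals promoters with a match, and from the Bcl6 promoter with 3 matches. They are shown because they are where the letters fall in a gene that rose, a gene that passed neither threshold and a gene that fell. Capitals mark the fixed letters of the motif, and every stretch runs 5′ to 3′ on the gene's strand. Cish lies on the plus strand at chr9:107296509-107296688, Igfals on the plus strand at chr17:24878081-24878230 and Bcl6 on the minus strand at chr16:23981284-23981483.
Cish: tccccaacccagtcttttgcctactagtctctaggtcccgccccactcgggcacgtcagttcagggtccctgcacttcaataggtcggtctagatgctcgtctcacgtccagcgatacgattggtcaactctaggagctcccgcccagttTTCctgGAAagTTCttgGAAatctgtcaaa
Igfals: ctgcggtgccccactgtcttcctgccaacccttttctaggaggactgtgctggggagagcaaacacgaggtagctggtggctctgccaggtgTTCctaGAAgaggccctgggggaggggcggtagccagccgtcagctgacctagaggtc
Bcl6: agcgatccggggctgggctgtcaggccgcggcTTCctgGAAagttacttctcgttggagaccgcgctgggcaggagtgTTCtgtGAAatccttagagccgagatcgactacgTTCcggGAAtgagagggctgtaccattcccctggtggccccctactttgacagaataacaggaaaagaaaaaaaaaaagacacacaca

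The Cish pair lay at bases 251 to 259 and 262 to 270 of its 300-base promoter, at the annotated start itself. The Igfals match began 58 bases before the start, and the Bcl6 matches began 168, 122 and 88 bases before it. A match is a description of the sequence, and binding was not measured in these libraries.

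The receptor is the entry point of the axis. Ghr, which encodes the growth hormone receptor (ENSMUSG00000055737, chromosome 15, 3347242 to 3612712, minus strand, coordinates as the deposited table gives them), was at 375, 383 and 271 CPM in ethanol-exposed replicates 1, 2 and 3, and at 360, 393 and 416 CPM in control replicates 1, 2 and 3. In FPKM, which uses no TMM factors, every ethanol-exposed value (21.5 to 33.0) lay below every control value (47.0 to 54.1). In CPM the groups overlapped, and the lowest value belonged to ethanol-exposed replicate 3. The log2 fold change was −0.18 (SE 0.16, edgeR adjusted p = 0.371), and it was −0.030 without that library. Ghr was a DEG under no alternative, but its adjusted p depended on how libraries were scaled. With library size alone the log2 fold change was −0.85 (edgeR adjusted p = 0.00527), which is −0.14 relative to the median of all genes in that setting. TMM also gave −0.14, a match that is built in, since the scalings shift all genes by nearly the same amount. In the 3 limma settings on log2 FPKM, Ghr was −0.41 to −0.78 relative to the median.

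Stat5a and Stat5b are near-identical neighbours that encode the transcription factors activated by the receptor, so reads that fit both could be assigned to either. Stat5b (ENSMUSG00000020919, chromosome 11, 100671557 to 100741550, minus strand) is the main form in liver. It was at 57.5, 71.1 and 49.02 CPM in the ethanol-exposed and 75.02, 58.99 and 57.6 CPM in the control libraries. The groups overlapped, with the highest value in control replicate 1 and the lowest in ethanol-exposed replicate 3. The log2 fold change was −0.11 (SE 0.17, edgeR adjusted p = 0.630), and its sign turned to 0.022 without ethanol-exposed replicate 3, to 0.019 without control replicate 1 and to 0.079 with the trend of counts with transcript length removed. With library size alone it was −0.77 (edgeR adjusted p = 0.0123), which is −0.060 relative to the median of all genes in that setting, and in the 3 limma settings on log2 FPKM it was −0.72 to −0.78 (adjusted p = 0.0101 to 0.0274).

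Stat5a (ENSMUSG00000004043, chromosome 11, 100750177 to 100775995, plus strand) was at 9.28, 10.4 and 10.3 CPM in the ethanol-exposed and 14.8, 11.9 and 14.8 CPM in the control libraries. Every ethanol-exposed value was below every control value, with control replicate 2 the closest to them. The log2 fold change was −0.47 (SE 0.14), with an edgeR adjusted p of 0.0317 but short of the fold threshold. The adjusted p was 0.0911, 0.108 and 0.119 without ethanol-exposed replicate 1, control replicate 1 and control replicate 3, respectively, and 0.14 with the length trend removed (log2 fold change −0.28). It was 0.082 with the replicate number as a block (log2 fold change −0.46), and 0.24 with the length trend removed as well (−0.27). With library size alone Stat5a was a DEG (−1.14, edgeR adjusted p = 0.000776), as it was with limma on log2(FPKM + 0.1) (−1.07, adjusted p = 0.00305). Its 3′ end overlaps the opposite-strand gene Stat3 from base 100775924 to base 100775995 of the chromosome. Stat3 had 14876 to 17434 counts in ethanol-exposed and 5266 to 6263 in control libraries, and the counting strand is not given in the sources used here. The share of Stat5a counts that came from Stat3 transcripts was not tested.

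Because both paralogs were read in the same library, their FPKM ratio does not depend on scaling between libraries. Stat5b exceeded Stat5a 7.99-, 8.79- and 6.17-fold in the ethanol-exposed libraries and 6.53-, 6.39- and 5.03-fold in the control libraries. The ranges overlapped. On the log2 scale, the ratio was 2.92 ± 0.26 against 2.57 ± 0.21 (SD, n = 3 each, exact two-sided permutation p = 0.3, where 3 against 3 libraries cannot give less than 0.1).

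The feedback inhibitors gave the highest fold changes of the axis. Socs2 (ENSMUSG00000020027, chromosome 10, 95221224 to 95253042, minus strand) encodes a SOCS protein that binds the activated growth hormone receptor and limits its signal. It was at 57.3, 29.8 and 64.2 CPM in the ethanol-exposed libraries and at 2.11, 1.15 and 1.87 CPM in the control libraries, where 88 to 198 reads lay on the gene. All ethanol-exposed values were far above all control values, and replicate 2 was the lowest within both groups. Socs2 was upregulated with a log2 fold change of 4.87 (SE 0.38, edgeR adjusted p = 0.000198), 29.3-fold, and 107 of the 16717 genes tested had a higher log2 fold change. Without ethanol-exposed replicate 3 the log2 fold change was 4.67.

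Cish (ENSMUSG00000032578, chromosome 9, 107173225 to 107179983, plus strand) encodes CIS, a second SOCS family inhibitor that competes for docking sites of STAT5, and its promoter holds the tandem pair of motifs shown above. It was at 13.2, 9.78 and 30.4 CPM in the ethanol-exposed and 1.95, 1.57 and 1.62 CPM in the control libraries. The groups did not overlap, and ethanol-exposed replicate 3 held the highest value by a wide margin. Cish was upregulated with a log2 fold change of 3.37 (SE 0.44, edgeR adjusted p = 0.00134), 10.4-fold. Without ethanol-exposed replicate 3 the log2 fold change was 2.75 and the edgeR adjusted p was 2.98e-05, so the value was smaller and the call was the same. In this library the summed level of 6 neutrophil markers was also the highest, with 2.71 to 13.7 CPM over the ethanol-exposed and 1.15 to 1.63 CPM over the control libraries and 3 of the 4 tested upregulated (10.4% of all genes tested were), and its part in the Cish value was not tested.

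Bcl6 (ENSMUSG00000022508, chromosome 16, 23783802 to 23807602, minus strand) encodes a repressor that binds many of the same sites as STAT5 in liver and is itself lowered by growth hormone. It was at 33.8, 29.7 and 22.9 CPM in the ethanol-exposed and 78.9, 47.8 and 52.8 CPM in the control libraries. Every ethanol-exposed value was below every control value, and control replicate 1 was the highest of all. Bcl6 was downregulated with a log2 fold change of −1.06 (SE 0.23, edgeR adjusted p = 0.0092), or 2.08-fold. The change lay just past the fold threshold, and it was −0.90 without ethanol-exposed replicate 3, −0.81 without control replicate 1 and −0.85 with the length trend removed, so the gene was then no DEG although its adjusted p stayed under 0.05 (0.00789, 0.0256 and 0.0214). The long noncoding gene Gm56627 overlaps Bcl6 on the same strand and had 0 to 3 counts in ethanol-exposed and 4 to 13 in control libraries.

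Igf1 (ENSMUSG00000020053, chromosome 10, 87694127 to 87772904, plus strand) encodes the hormone that the axis delivers to the blood. It was at 528, 524 and 727 CPM in the ethanol-exposed libraries and at 302, 301 and 306 CPM in the control libraries. The controls were almost equal, every ethanol-exposed value was higher, and replicate 3 was the highest. The log2 fold change was 0.97 (SE 0.15, edgeR adjusted p = 0.00262), 1.96-fold, which misses the fold threshold by a small margin. It passed that threshold without ethanol-exposed replicate 1 (1.04) or 2 (1.05) and with the length trend removed (1.15), and it was 0.81 without ethanol-exposed replicate 3.

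How much Igf1 changed depended on the scale. The FPKM of Igf1, which the authors scaled by library size without TMM factors, was 38.6, 41.3 and 52.6 in the ethanol-exposed and 36.1, 35.8 and 36.4 in the control libraries. These groups also did not overlap, but they lay closer together, and limma on log2(FPKM + 1) gave a log2 fold change of 0.27 (adjusted p = 0.151). In edgeR with library size alone it was 0.30 (adjusted p = 0.114), which is 1.01 relative to the median of all genes, the same as under TMM. The opposite-strand gene Igf1os overlaps Igf1 and had 129 to 192 counts against 31 to 38, where Igf1 itself had 22898 or more in every library.

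Igfals (ENSMUSG00000046070, chromosome 17, 25084971 to 25100984, plus strand) encodes the acid-labile subunit, a liver protein that holds IGF1 and a binding protein in their long-lived complex. It was at 53.2, 80.9 and 42.3 CPM in the ethanol-exposed and 78.5, 84.3 and 78.8 CPM in the control libraries. The controls lay close together, ethanol-exposed replicates 1 and 3 were below them, and ethanol-exposed replicate 2 fell among them. In FPKM, every ethanol-exposed value (9.57 to 19.9) lay below every control value (29.3 to 31.4). The log2 fold change was −0.45 (SE 0.22, edgeR adjusted p = 0.141). Without ethanol-exposed replicate 2 it was −0.76 (edgeR adjusted p = 0.0104), and without ethanol-exposed replicate 3 it was −0.25 (edgeR adjusted p = 0.229). Igfals was a DEG with library size alone (−1.11, edgeR adjusted p = 0.00819), which is −0.40 relative to the median of all genes in that setting, and in the 3 limma settings on log2 FPKM (−1.12 to −1.17).

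Hormone and subunit thus had log2 fold changes of opposite sign, and their ratio within a library was compared directly. The FPKM of Igf1 was 3.17, 2.07 and 5.50 times that of Igfals in the ethanol-exposed libraries and 1.23, 1.14 and 1.24 times in the control libraries. Every ethanol-exposed library lay above every control library, with replicate 3 the highest. The log2 ratio was 1.73 ± 0.71 against 0.27 ± 0.068 (SD, n = 3 each, exact two-sided permutation p = 0.1, the smallest this design can give). The difference of 1.46 was 1.09 without ethanol-exposed replicate 3.

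IGF binding proteins carry IGF1 and set how much of it is free. Igfbp2 (ENSMUSG00000039323, chromosome 1, 72863662 to 72891633, plus strand) was at 1259, 1007 and 812 CPM in the ethanol-exposed and 575, 367 and 400 CPM in the control libraries. The groups did not overlap, with ethanol-exposed replicate 3 and control replicate 1 the closest across them. Igfbp2 was upregulated with a log2 fold change of 1.20 (SE 0.23, edgeR adjusted p = 0.00556), 2.29-fold.

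Igfbp4 (ENSMUSG00000017493, chromosome 11, 98932070 to 98945218, plus strand), a binding protein that holds IGF1 back from its receptor until it is cleaved, was at 1322, 1341 and 1429 CPM in the ethanol-exposed and 631, 647 and 625 CPM in the control libraries. Libraries within a group were nearly equal and the groups lay far apart, which made this the member with the smallest standard error. Igfbp4 was upregulated with a log2 fold change of 1.11 (SE 0.10, edgeR adjusted p = 0.000356), 2.15-fold. For both binding proteins the call rested on the scaling: with library size alone, the log2 fold changes were 0.53 for Igfbp2 (edgeR adjusted p = 0.0864) and 0.44 for Igfbp4 (edgeR adjusted p = 0.0106), and neither was then a DEG. Relative to the median of all genes, both settings gave 1.24 for Igfbp2 and 1.15 for Igfbp4.

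**Figure D2:**
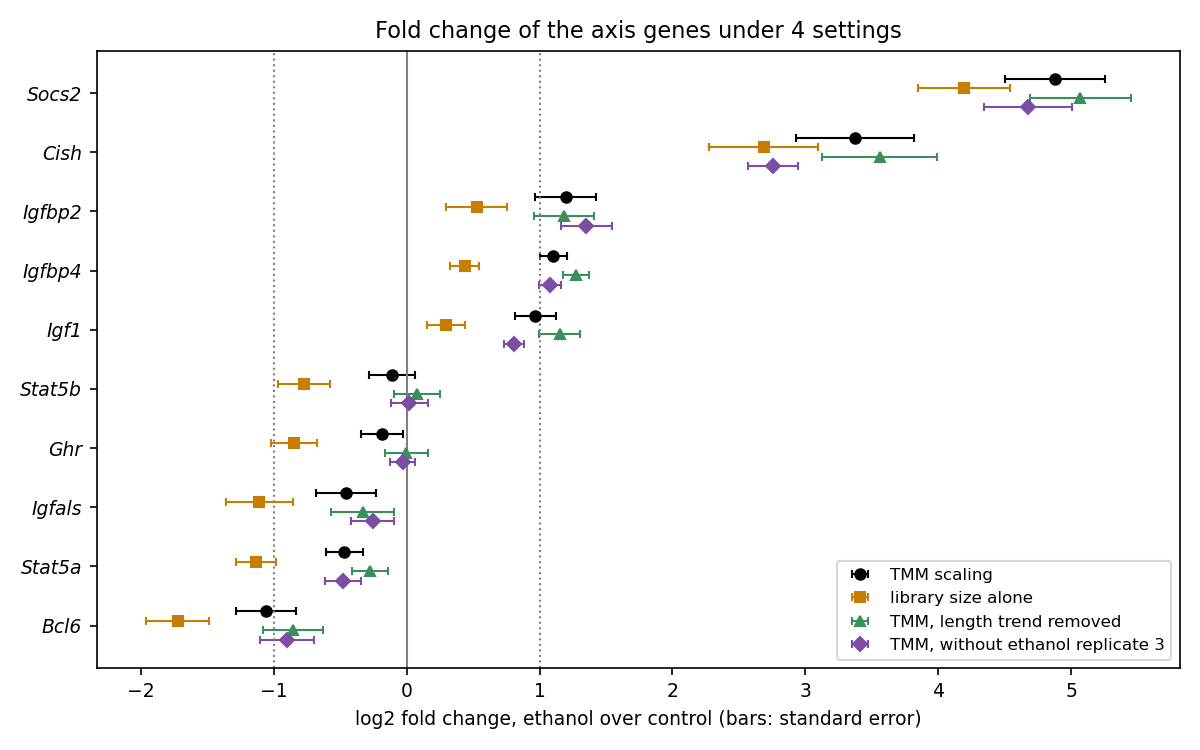
Log2 fold change, ethanol over control, of each axis gene in edgeR under TMM scaling, library size alone, TMM with the length trend removed, and TMM without ethanol-exposed replicate 3, with standard errors as bars and dotted lines at −1 and 1. Library size alone moves every gene to the left, so that Igfbp2 and Igfbp4 drop to 0.53 and 0.44, while Socs2 (4.19) and Cish (2.69) stay far past 1; Stat5b is the gene that crosses 0.

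The 7 IGF binding protein genes were then set side by side per length. Their summed FPKM was 2355, 2656 and 1349 in the ethanol-exposed and 754, 629 and 647 in the control libraries. All ethanol-exposed sums were higher, with replicate 3 the lowest of them. Most of this came from Igfbp1, a short-lived binding protein that rises in the fasted liver, which was at 3401, 3836 and 1632 CPM against 222, 229 and 235 CPM and was upregulated with a log2 fold change of 3.69 (SE 0.32, edgeR adjusted p = 0.000294).

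Igfbp1 took 56.9% to 73.9% of the summed FPKM in ethanol-exposed and 22.9% to 28.1% in control mice. The share of Igfbp2 was 20.99%, 16.01% and 23.4% in the ethanol-exposed and 48.9%, 37.2% and 39.4% in the control libraries. Although the CPM of Igfbp2 was higher with ethanol, its share was therefore lower in every ethanol-exposed library, at 20.1% ± 3.75 against 41.8% ± 6.2 (SD, n = 3 each, exact two-sided permutation p = 0.1, the smallest possible). Igfbp4 likewise went from 22.4% to 27.4% in control to 8.92% to 17.2% in ethanol-exposed mice.

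Igfbp5 was downregulated (log2 fold change −2.03, edgeR adjusted p = 0.00156) from a low level of 5.87 to 7.51 CPM in control mice. Igfbp3, the partner of IGF1 and the acid-labile subunit in the circulating complex, had a log2 fold change of 0.073 (edgeR adjusted p = 0.690), and Igfbp6 and Igfbp7 were not DEGs. In all, 3 of the 7 were upregulated and 1 was downregulated, beside 10.4% and 13.8% of all genes tested.

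**Figure D3:**
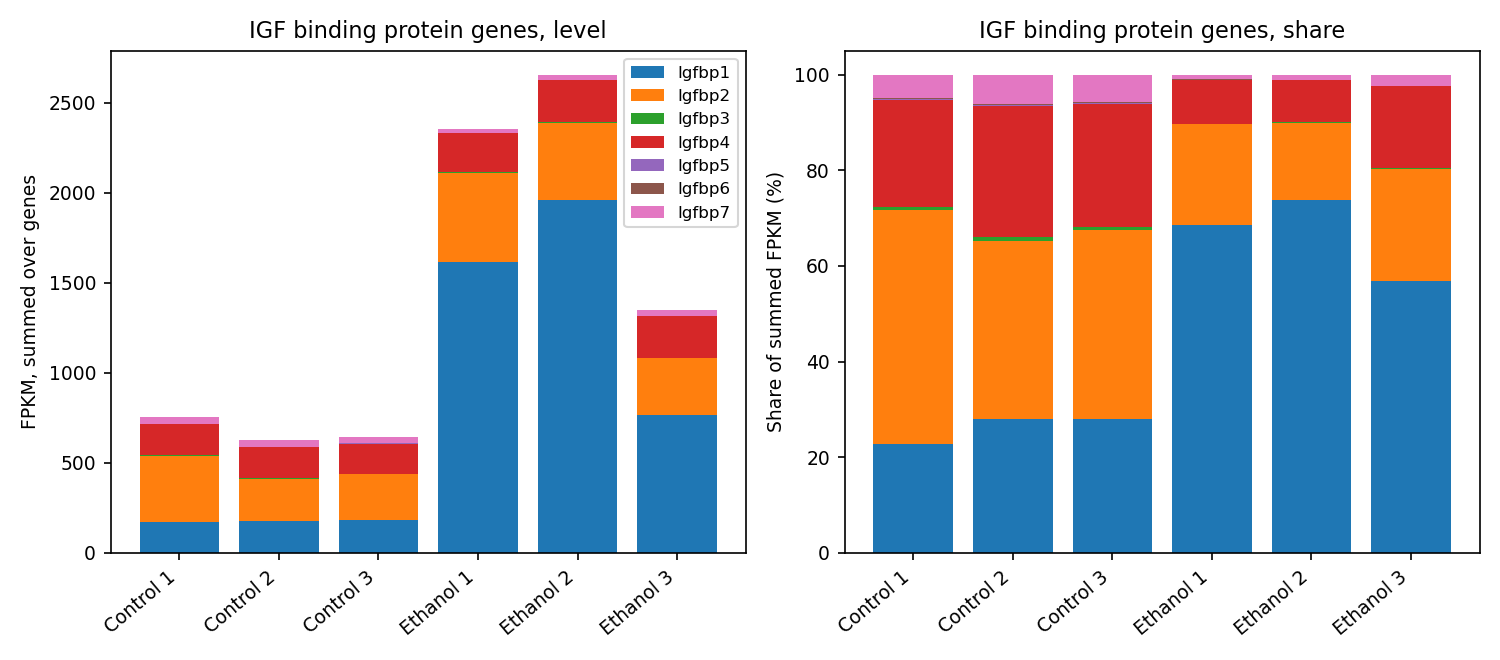
Summed FPKM of Igfbp1 to Igfbp7 in each library (left) and the share of each gene in that sum in percent (right), as stacked bars. Igfbp1 fills 56.9% to 73.9% of the bar in ethanol-exposed libraries against 22.9% to 28.1% in control libraries, where Igfbp2 holds the largest share.

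Ranked per length in control mice, the mean FPKM of the members ran from Igfbp2 (286) and Igfbp4 (169) through Ghr (50.8), Igf1 (36.1), Igfals (29.98), Stat5b (13.6), Bcl6 (10.5) and Stat5a (2.28) to Cish (0.313) and Socs2 (0.209). In ethanol-exposed mice the order was Igfbp2 (412), Igfbp4 (229), Igf1 (44.2), Ghr (28.2), Igfals (13.9), Stat5b (7.96), Socs2 (3.87), Bcl6 (3.19), Cish (2.02) and Stat5a (1.04). Ghr lay above Igf1 in every control library and below it in every ethanol-exposed library, with Ghr at 47.0 to 54.1 and Igf1 at 35.8 to 36.4 FPKM in control mice and Ghr at 21.5 to 33.0 and Igf1 at 38.6 to 52.6 FPKM in ethanol-exposed mice. Neighbours in these orders whose libraries overlapped were Stat5b and Bcl6 in control mice, and Igfals and Stat5b, Socs2 and Bcl6, and Bcl6 and Cish in ethanol-exposed mice. Socs2 stood at percentile 15.97 of the genes tested by mean FPKM in control and at 73.6 in ethanol-exposed mice, the widest move of any member.

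The wider pathway was read from lists of genes chosen by name, with earlier results of these data known. At the receptor, kinase and STAT step, Stat3, the STAT that answers to interleukin 6 and leptin receptors, was at 259, 247 and 319 CPM in the ethanol-exposed and 66.7, 71.6 and 63.9 CPM in the control libraries and was upregulated (log2 fold change 2.03, SE 0.13, edgeR adjusted p = 0.000121). Its groups were tight and did not overlap. Jak2, the kinase on the receptor, had a log2 fold change of 0.97 (edgeR adjusted p = 0.0352) with overlapping groups, since ethanol-exposed replicate 3 (11.5 CPM) lay within the control range of 9.87 to 12.1 CPM. Without that library it was 1.28 (edgeR adjusted p = 0.000108).

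Of 12 SOCS family and phosphatase genes, some of which limit JAK and STAT signals, 6 were upregulated and 3 were downregulated. These counts stand beside 10.4% and 13.8% of all genes tested. The median log2 fold change of the 12 genes was 1.42, against −0.043 over all genes. Beside Socs2 and Cish, Socs3 was upregulated by 4.60 on the log2 scale (edgeR adjusted p = 9.88e-05). It encodes the inhibitor induced by STAT3, and it was at 140, 122 and 143 CPM against 3.39, 6.84 and 6.46 CPM. Socs7 (1.82), Ptpn2 (1.91) and Ptpn1 (1.02) were also upregulated, the last of these under 1 in 8 of 18 alternative settings. Socs7 was at 0.74 with limma on log2(FPKM + 1) (adjusted p = 0.0304). Socs4 (−1.06), Socs5 (−1.74) and Ptpn6 (−1.22), the phosphatase SHP1, were downregulated. Without ethanol-exposed replicate 3 the log2 fold change of Socs5 was −2.39. Socs5 lost its call without ethanol-exposed replicate 2 or any 1 of the 3 control libraries and with limma on log2(FPKM + 1) (−0.79), and Socs4 without ethanol-exposed replicate 1 or 2 or control replicate 3 and with the length trend removed, with or without the replicate block (−0.91 and −0.87).

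Of 5 IGF ligand, receptor and acid-labile subunit genes, 4 were tested and none was a DEG in edgeR or DESeq2, where 24.2% of all genes tested were DEGs in edgeR, with Igf1 the 1 gene at an unadjusted p under 0.05. Igf2, the fetal ligand, was not tested, since its reads were confined to control replicate 3 (12 counts). Among 5 genes that cleave binding proteins or inhibit that cleavage, 3 were tested and none was a DEG in edgeR, while 1 had an unadjusted p under 0.05 and 1 was a DEG in DESeq2.

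Growth hormone also sets the sex-biased genes of the liver, and all mice here were male. Of 16 male-biased genes, 1 was upregulated and 3 were downregulated, with a median log2 fold change of −0.063. These counts lie near the 10.4% and 13.8% of all genes tested. Elovl3, a fatty acid elongase, was at 40.5, 26.4 and 22.9 CPM in the ethanol-exposed and 622, 766 and 739 CPM in the control libraries (log2 fold change −4.57, SE 0.25, edgeR adjusted p = 7.64e-05), 23.7-fold lower. No other male-biased gene of the list changed on this scale.

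Keg1 was at 33.1, 64.03 and 8.74 CPM against 174, 184 and 171 CPM (log2 fold change −2.32, edgeR adjusted p = 0.0195). Hsd3b5, a steroid dehydrogenase, was at 56.6, 62.2 and 11.3 CPM against 167, 170 and 182 CPM (log2 fold change −1.998, edgeR adjusted p = 0.0235). Both were lowest in ethanol-exposed replicate 3, without which they were downregulated with log2 fold changes of −1.85 and −1.53 (edgeR adjusted p = 0.000724 and 1.53e-05). Their edgeR adjusted p lay between 0.0507 and 0.0704 without ethanol-exposed replicate 1 or any 1 control library. Cyp2d9 was upregulated (log2 fold change 1.19, edgeR adjusted p = 0.00316), although reads of its close paralogs cannot be told apart with certainty. The other 12, with C6, C8a, Slco1a1 and Cyp7b1 among them, passed neither threshold in edgeR.

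Of 16 female-biased genes, 11 were tested, 4 were upregulated and none was downregulated in edgeR, in DESeq2 or at an unadjusted p under 0.05, beside 10.4% and 13.8% of all genes tested. Their median log2 fold change was 1.21. Trim24, a nuclear cofactor, was at 39.6, 41.2 and 33.1 CPM against 9.42, 9.46 and 9.41 CPM (log2 fold change 2.01, edgeR adjusted p = 8.86e-05). Cyp2a4 (3.54), a paralog of Cyp2a5 with reads that may be shared, Cux2 (3.47) and Tox (1.78) were upregulated from low levels. Trim24 fell under the fold threshold with limma on log2(FPKM + 1) (0.90, adjusted p = 0.00191). Cux2 and Tox lost their calls with limma on log2 FPKM. With a pseudocount of 1, Tox was at 0.26 (adjusted p = 0.0995) and Cux2 at 0.10 (adjusted p = 0.246). With 0.1, Tox was at 0.78 (adjusted p = 0.106) and Cux2 at 0.64 (adjusted p = 0.18). Cux2 had 24 to 146 counts in ethanol-exposed and 4 to 15 in control libraries, and its edgeR adjusted p was 0.0711 without control replicate 1 and 0.0714 without control replicate 2. Without ethanol-exposed replicate 3, which held the 146 counts, its log2 fold change was 2.21 (edgeR adjusted p = 0.043). The Cyp3a genes of the list ranged from 0 to 1715 counts between libraries of the same group.

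Of 6 liver regulators that act beside STAT5, Cux2, Trim24 and Onecut1 (1.11) were upregulated and Bcl6 was downregulated, beside the same 10.4% and 13.8%. Hnf4a, a hepatocyte identity factor, had a log2 fold change of 0.69 (edgeR adjusted p = 0.00243) and the glucocorticoid receptor gene Nr3c1 one of 0.66 (edgeR adjusted p = 0.0869). Without ethanol-exposed replicate 3, the log2 fold change of Nr3c1 was 0.93 (edgeR adjusted p = 0.00073). With library size alone, Ptpn1, Cyp2d9 and Onecut1 were no longer DEGs, at log2 fold changes of 0.35, 0.52 and 0.43.

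**Figure D4:**
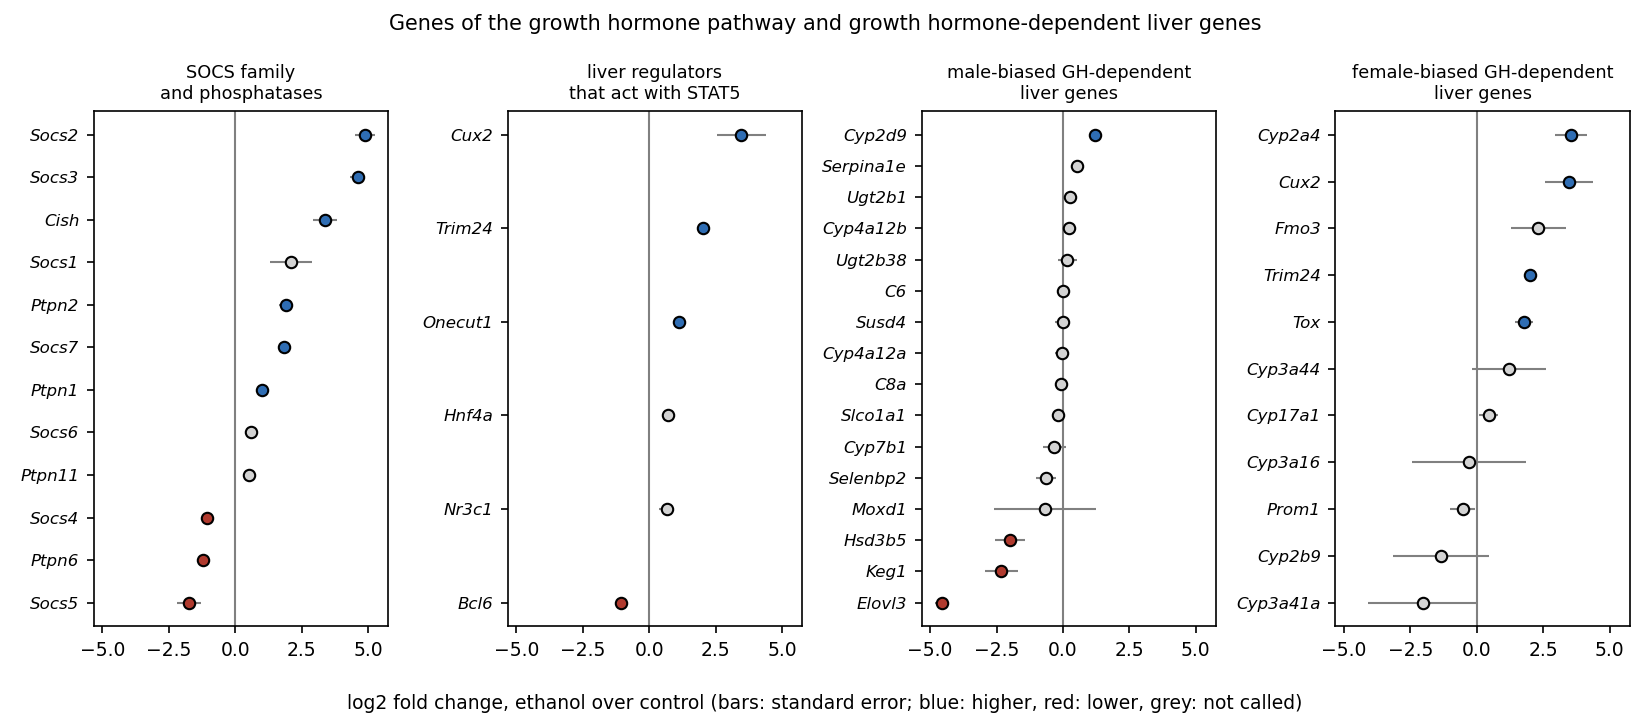
Log2 fold change, ethanol over control, with its standard error for each tested gene of 4 lists around growth hormone signalling. Blue points are upregulated DEGs, red points downregulated DEGs and grey points neither. Socs2 (4.87) and Socs3 (4.60) lie at the top of the SOCS family and phosphatase genes, and Elovl3 (−4.57) lies at the bottom of the male-biased genes.

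A last list held fasting and cytokine genes that are known to act on growth hormone signalling. Of 9 genes, 7 were tested, 3 were upregulated and 1 was downregulated, where 10.4% and 13.8% of all genes tested were. The leptin receptor gene Lepr was at 18.5, 18.7 and 20.6 CPM in the ethanol-exposed and 0.895, 0.892 and 1.15 CPM in the control libraries (log2 fold change 4.29, SE 0.17, edgeR adjusted p = 4.51e-05). Il6ra, which encodes the interleukin 6 receptor, was upregulated as well (1.43, edgeR adjusted p = 0.00223, and 0.75 with library size alone), and Igfbp1 is described above. Fgfr4 was downregulated (−1.11, edgeR adjusted p = 0.00547, and −0.93 without ethanol-exposed replicate 3). Klb was not a DEG (0.90, edgeR adjusted p = 0.0896). Without that library Klb was upregulated (1.24, edgeR adjusted p = 0.00182), while Fgfr4 was no DEG. Fgf21, a fasting hormone of the liver, had 4 to 34 counts in ethanol-exposed and 16 to 22 in control libraries (log2 fold change 0.23, edgeR adjusted p = 0.839). Its sign turned without ethanol-exposed replicate 3, which held the 34 counts (−1.17, edgeR adjusted p = 0.238). Il6 and Tnf were too low to be tested.

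To find genes with profiles like those of Igf1 and Socs2, log2 CPM values were centred over the 6 libraries, and 13814 tested genes with an established symbol were ordered by their root mean square difference. The closest to Igf1 were Fam43a (0.0234), Gna13 (0.0412) and Zc3h7a (0.0542), whose log2 fold changes were 0.95, 0.96 and 0.91. The closest to Socs2 were Cldn14 (0.347), Il1r1 (0.396) and Slc39a14 (0.420), whose log2 fold changes were 4.47, 4.93 and 4.45. The points share libraries and scaling, and likeness over 6 libraries describes these profiles only.

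Markers of other liver cells were read beside these genes. Kupffer cell markers summed to 110 to 152 CPM in ethanol-exposed and 140 to 156 CPM in control mice, and none of the 9 was a DEG in edgeR or DESeq2, while 2 were lower on the adjusted p alone and 4 at an unadjusted p under 0.05. Of 7 sinusoidal endothelial markers 1 was upregulated and 2 were downregulated, and of 7 stellate cell markers 2 were downregulated, where 10.4% of all genes tested were upregulated and 13.8% downregulated. T cell markers summed to 0 to 0.521 CPM against 0.735 to 0.97 CPM and B cell markers to 2.91 to 4.5 CPM against 4.7 to 6.34 CPM, with 1 of 5 B cell markers downregulated. Cholangiocyte markers summed to 33.8 to 39.6 CPM against 7.06 to 10.4 CPM, of which Sox9 made up 29.6 to 34.2 CPM against 4.25 to 5.12 CPM. Sox9 was the 1 of 4 tested that was upregulated in edgeR, the groups of Krt19, Krt7 and Epcam overlapped, and DESeq2 called 1 marker of the list lower. The part of these cell types in the values of the axis genes was not tested.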

How the data were processed

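Liver RNA from 3 acute ethanol-exposed and 3 control mice was analysed, with groups taken from the labels. The authors deposited raw counts of reads per Ensembl gene, and beside each count an FPKM value scaled by the authors to library size and transcript length. Aligner, counter and counting strand are not given in the sources used here. The submitters' processing notes name GRCm38 and mm10, but 539 of 27049 genes shared with GENCODE M21 (1.99%), and 0 of the 10 members, had the same coordinates, so gene coordinates are the table's own, and promoter coordinates are those of GRCm38.p6. The table has 1 count column that matches no sample and was not used. 

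Counts were filtered by filterByExpr, scaled by TMM and compared without covariates by edgeR 4.0.16 (quasi-likelihood, two-sided) in R 4.3.3, with Benjamini-Hochberg adjustment over 16717 genes. DEGs passed 0.05 on the adjusted p and 1 on the absolute log2 fold change. Ratios and shares of FPKM were compared by exact two-sided permutation over libraries. Within groups, libraries differed by more than counting error (chi-square of 49.6 to 496 per degree of freedom), so none was treated as a repeat deposit of another library. The labels do not say more of how replicates arose than that they are separate samples, so p-values measure the spread between these samples. Alternatives were other scalings and filters, DESeq2 1.42.0, limma 3.58.1 on log2 FPKM with pseudocounts of 1 and 0.1, removal of the trend with transcript length, the replicate number as a block, and each library left out in turn. On simulated counts of the same comparison with 16137 genes tested, edgeR recovered 62 of 105 genes changed by 1.5 and 71 of 89 changed by 2 on the log2 scale, with 7 false calls in all. The simulation changed few genes, in both directions, and held no scaling shift between the groups and no length trend. Its counts therefore do not measure errors that come from scaling or transcript length. The members, lists and tests were chosen with earlier results of these data known. Named genes were the members, up to 5 DEGs per list and direction with the smallest adjusted p, and the 3 profiles closest to Igf1 and Socs2. Other list genes were named after their values were seen. The result for 1 listed gene is not reported here.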

Additional observations from a re-analysis of the deposited data

How the results depend on the processing

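Socs2 and Cish were upregulated under all 18 alternatives, with log2 fold changes of 1.97 to 5.14 and 1.13 to 3.66. The count of upregulated members fell from 4 to 2 with library size alone and with each of the 3 limma settings on log2 FPKM, since Igfbp2 and Igfbp4 then lay under the fold threshold. The count of downregulated members was 3 with library size alone and with limma on log2(FPKM + 0.1), 2 with limma on log2(FPKM + 1) with or without a mean FPKM of at least 1, and 0 with the length trend removed. On the adjusted p alone, the same library-size and limma settings gave 3 higher members in place of 5 and 5 lower in place of 2, and removal of the length trend gave 1 lower. The median over all genes also moved in these settings, to −0.71 (log2) with library size alone. With each library left out, downregulated members numbered 0 to 1 (0 without ethanol-exposed replicate 3 or control replicate 1), upregulated members 4 to 5 and lower members on the adjusted p alone 1 to 3 (3 without ethanol-exposed replicate 2, 1 without ethanol-exposed replicate 1, control replicate 1 or control replicate 3).

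Same-numbered libraries did not deviate together (correlations of −0.035, −0.021 and −0.017). With the replicate number as a block, 1 member was lower on the adjusted p alone in place of 2, and the upregulated (4), downregulated (1) and higher (5) counts were as before. With the block and the length trend removed, 0 members were downregulated and 1 was lower on the adjusted p alone. The log2 fold change of Stat5b turned to 0.079 with the length trend removed and 0.069 with the block added, and it ran from −0.26 to 0.022 with each library left out. Over 32 genes followed through the alternatives, 494 values kept direction and call, 64 lost the call, 10 gained it and 4 changed sign. The causes were not tested beyond these settings. With 3 libraries per group, the spread between libraries limits precision more than depth does.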
